A study of Arabidopsis thaliana with 16 samples.

Results

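The 34 nuclear genes described here encode subunits of photosystem I (12 genes), its light-harvesting antenna LHCA1 to LHCA4 (4 genes), photosystem II (10 genes), the electron carriers between and after the photosystems (6 genes) and the plastid ATP synthase (2 genes). They were taken by locus from a list of Arabidopsis genes, without use of their measured values, and they make up 34 of the 40421 loci counted. Total RNA was sequenced from Arabidopsis thaliana of the Col-0 accession in 8 groups of 2 libraries. These were dry seed (DS), seed stratified for 24 h (S24) or 72 h (S72), germinating seed after 6 h (L6) and 26 h (L26) of light, seedlings after 57 h of light (L57), and seedlings of the genotypes hen2-4 and rrp4-2, also after 57 h of light. HEN2 is an RNA helicase that delivers RNA to the nuclear exosome and RRP4 is a subunit of that exosome; each is represented by 1 allele, and the labels do not describe the lesions. Seeds were stratified in water in the dark and cold, then shaken in liquid medium in continuous light; by the methods L26 is the time of radicle emergence and L57 that of expanded green cotyledons. Each library came from whole seeds or whole seedlings, and nothing in the labels says that the 2 libraries of a group came from separate plantings, so the p-values measure the spread between these libraries, which may be technical.

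In plants, photosystem II takes electrons from water and passes them through plastoquinone, the cytochrome b6f complex and plastocyanin to photosystem I, which reduces ferredoxin; ferredoxin-NADP reductase (FNR) then makes NADPH, and the proton gradient drives the ATP synthase. Both photosystems, cytochrome b6f and the ATP synthase are built from subunits made in the plastid and subunits encoded in the nucleus and imported, whereas plastocyanin, ferredoxin and FNR are encoded in the nucleus. Dry seeds hold undeveloped plastids, and the thylakoid membranes that carry the complexes form as the cotyledons turn green in the light.

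Library totals ran from 75618077 to 112510105 estimated counts in a shallower set (DS, L6, L26 and L57) and from 237727756 to 266418636 in a deeper set (S24, S72, hen2-4 and rrp4-2), so that the steps from DS to S24 and from S72 to L6 and the comparisons of L57 with the mutants cross these sets; depth and group cannot be told apart there. Plastid transcripts took 3.99% to 11.3% of all counts up to L26 and 41.2% to 49.7% in the seedlings, and DS replicate 1 held 12.3% nuclear rRNA, against at most 1.33% in any other library. The summed CPM (estimated counts scaled to a common library total) of 6 seed storage protein genes was 61210 to 68480 in DS and 35.2 to 42.0 in L57, that of 5 root markers was 1.02 to 1.32 in DS, with 1 of them at 0, and 3754 to 4751 in L57, and that of 5 green tissue markers was 14.9 to 16.7 in DS and 21390 to 22730 in L57. PYK10 alone held 4714 and 3721 CPM of the root sum in L57. In these whole seeds and seedlings, fewer cells of a type and less RNA per cell cannot be told apart.

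Together the 34 genes went from a trace of the transcriptome in dry seed to a few percent of it in the green seedling. They took 0.00736% and 0.00846% of all counts in the DS libraries and 0.00745% and 0.00769% in S24. Their share was 0.0134% and 0.0128% in S72, 0.0394% and 0.0414% in L6, and 0.222% and 0.236% in L26. In L57 it was 3.07% and 3.25%. The share of all counts was thus flat over the first 24 h of imbibition, and each later step raised both libraries above both libraries of the stage before. Without organellar and rRNA features the share fell over the first 24 h. It was then 0.00900% and 0.00908% in DS and 0.00784% and 0.00812% in S24, without overlap. The lowest count of any of these genes in a DS library was 2, for the plastocyanin gene PETE1, and 3 genes in DS replicate 1 and 2 genes in DS replicate 2 had fewer than 10 counts, so the folds from dry seed of the lowest genes are the least precise.

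**Figure D1:**
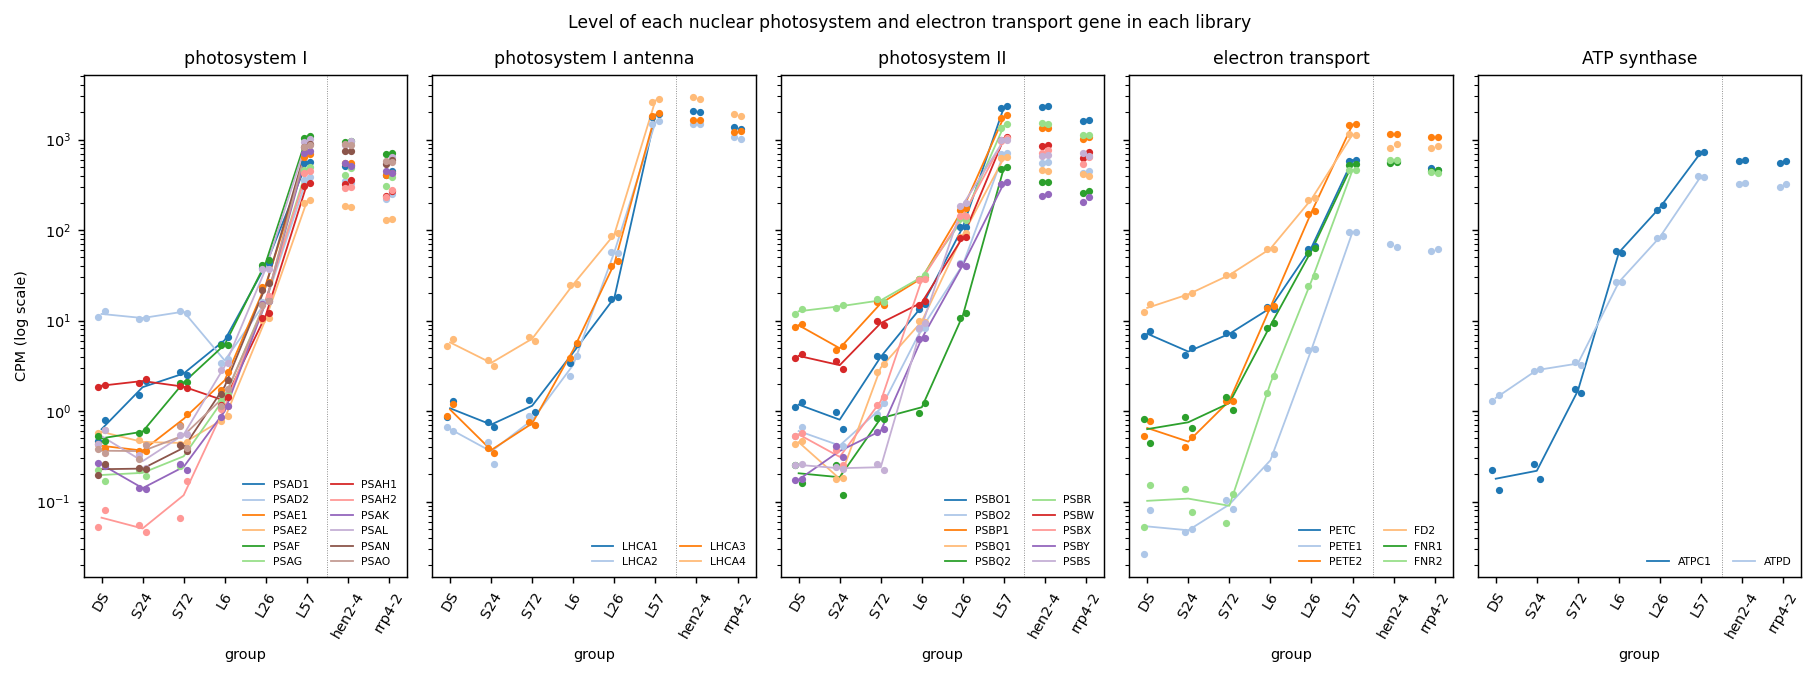
Level of each of the 34 genes in CPM (log scale) in each library (points) of the 8 groups, with lines through the means of the 6 Col-0 stages, in panels by complex. The median gene stood at 0.597 CPM in DS, 42.1 in L26 and 731 in L57; PSAD2 and PSAH1 fell between S72 and L6 while the other genes did not.

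Between DS and L57 all 34 genes rose (edgeR quasi-likelihood test with Benjamini-Hochberg adjusted p under 0.05 over 28824 genes; 40.5% of all genes tested were called higher and 37.7% lower), with a median log2 fold change of 10.41 beside a median of 0 over all genes. The ratio of mean CPM between L57 and DS ran from 31.5 for PSAD2 to 6578 for PSAH2, both subunits of photosystem I. PSAH2 (AT1G52230), a small subunit on the face of photosystem I where the mobile antenna docks, had the largest log2 fold change (12.26, SE 0.30, adjusted p = 2.49e-13). It was followed by ATPC1 (AT4G04640), the regulatory gamma subunit of the ATP synthase (11.68, SE 0.21, adjusted p = 2.42e-14), and FNR2 (AT1G20020), a reductase that passes electrons from ferredoxin to NADP (11.65, SE 0.32, adjusted p = 7.49e-13). The other extreme was PSAD2 (AT1G03130), a copy of the subunit that docks ferredoxin, with 4.61 (SE 0.12, adjusted p = 5.80e-13).

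The first day of imbibition did not raise the group. From DS to S24 the test called 19 genes lower and 2 higher (24.8% and 28.9% of all genes tested), with a median log2 fold change of -0.77 beside 0.22 over all genes. These fold changes use TMM scaling (edgeR's trimmed mean of M-values). In CPM alone 18 genes were lower and 7 higher in both S24 libraries than in both DS libraries. The share of all genes that separate in this way was not counted. All 4 antenna genes were among the falls. LHCA3 (AT1G61520), a chlorophyll-binding antenna protein of photosystem I, gave 0.873 and 1.21 CPM in DS and 0.395 and 0.347 in S24 (log2 fold change -2.07, SE 0.21, adjusted p = 1.89e-06). PSBQ1 (AT4G21280), a small luminal protein of the oxygen-evolving complex, gave 0.436 and 0.471 CPM in DS and 0.177 and 0.181 in S24 (-1.90, SE 0.19, adjusted p = 1.26e-06), and PSAL, a photosystem I subunit needed for docking of the mobile antenna, went from 0.436 and 0.622 to 0.324 and 0.235 CPM and fell by 1.52 on the log2 scale (SE 0.23, adjusted p = 6.61e-05). In all these cases the groups did not overlap. The genes called higher were PSAD1 (0.95, SE 0.25, adjusted p = 0.00527) and the ATP synthase delta subunit ATPD (0.45, SE 0.12, adjusted p = 0.00471). Without DS replicate 1 neither passed, and ATPD also did not pass without S24 replicate 2.

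Between S24 and S72, still in the cold and dark, 27 of the 34 genes rose and 0 fell (26.12% of all genes were called higher and 27.7% lower), with a median log2 fold change of 0.87 beside -0.17 over all genes. None was lower at an unadjusted p under 0.05 in edgeR or by the DESeq2 Wald test. The genes described first are PSBQ1 and PSBO1, of the lumen side of photosystem II, and ATPC1. PSBQ1 went to 2.72 and 3.33 CPM (log2 fold change 4.11, SE 0.13, adjusted p = 1.63e-10), and PSBO1 (AT5G66570), the manganese-stabilising protein of the oxygen-evolving complex, from 0.968 and 0.640 CPM to 4.03 and 3.93 (2.36, SE 0.14, adjusted p = 1.96e-08). ATPC1 went from 0.261 and 0.177 CPM to 1.75 and 1.60 (2.98, SE 0.17, adjusted p = 1.29e-08). Of the photosystem II genes 8 of 10 rose, of photosystem I 8 of 12, of the antenna 4 of 4, of electron transport 5 of 6, and of the ATP synthase 2 of 2, where ATPD changed least (0.28). PSBS (AT1G44575), the protein that senses lumen pH for energy dissipation, was at 0.240 and 0.228 CPM in S24 and 0.259 and 0.221 in S72. Its groups overlapped, and it did not pass the test.

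After 6 h of light 31 genes had risen and 2 had fallen (33.8% and 31% of all genes), with a median log2 fold change of 1.52 beside 0 over all genes. The largest rises came from genes of different complexes. PSBS reached 8.20 and 9.35 CPM (4.73, SE 0.11, adjusted p = 2.42e-12), ATPC1 58.2 and 55.2 CPM (4.62, SE 0.14, adjusted p = 1.11e-11), and FNR2, at 0.0577 and 0.122 CPM in S72, 1.60 and 2.45 CPM (4.01, SE 0.31, adjusted p = 6.56e-08). The 2 genes that fell, PSAD2 and PSAH1, each have a second copy that rose, and are described with the gene pairs.

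From L6 to L26 and from L26 to L57 all 34 genes rose at each step (from L6 to L26 30.2% of all genes were called higher and 28.1% lower, and from L26 to L57 29.7% and 35.5%). The median log2 fold change was 3.04 for the first of these steps and 4.96 for the last, beside 0 and -0.11 over all genes. From L6 to L26 the largest were again PSBS (4.41, SE 0.10, adjusted p = 3.17e-11), the antenna gene LHCA2 (4.106, SE 0.22, adjusted p = 4.13e-09) and the plastocyanin gene PETE1 (4.03, SE 0.16, adjusted p = 3.91e-10). From L26 to L57 they were LHCA1, which went from 17.4 and 18.3 CPM to 1786 and 1919 (7.35, SE 0.23, adjusted p = 2.57e-11), PSAO, a photosystem I subunit that takes part in binding the mobile antenna (6.41, SE 0.24, adjusted p = 8.75e-11), and PSAK, a photosystem I core subunit that contacts the antenna (6.19, SE 0.12, adjusted p = 1.47e-12). Every gene was higher in both libraries of the later stage at both steps, though the share of all genes that did so was not counted. Every call of these steps and of DS to L57 held in each alternative run.

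The complexes differed in how much of the rise was already in place before the last step. In L26 the ATP synthase genes stood at 21.3% (ATPD) and 24.6% (ATPC1) of their mean CPM in L57, whereas the antenna genes stood at 0.964% (LHCA1) to 3.69% (LHCA2). The photosystem I genes had a median of 3.82% and a range of 1.85% (PSAO) to 7.33% (PSAD1). For photosystem II the median was 9.46% (2.34% for PSBQ2 to 19.4% for PSBS), and for electron transport 10.8% (5.03% for PETE1 to 19.3% for the leaf ferredoxin FD2). In L6 the ATP synthase again stood highest and the antenna lowest by median, with 6.77% and 7.82% for the ATP synthase and medians of 1.56% for photosystem II, 1.31% for electron transport, 0.327% for photosystem I and 0.246% for the antenna. The ratio of L57 to L26 in mean CPM ran from 4.06 for ATPC1 to 104 for LHCA1. These percentages are a description with no test; they divide by all counts, of which plastid RNA took a larger part in L57, and without organellar and rRNA features the median over the 34 genes in L26 was 3.22% in place of 5.03%.

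**Figure D2:**
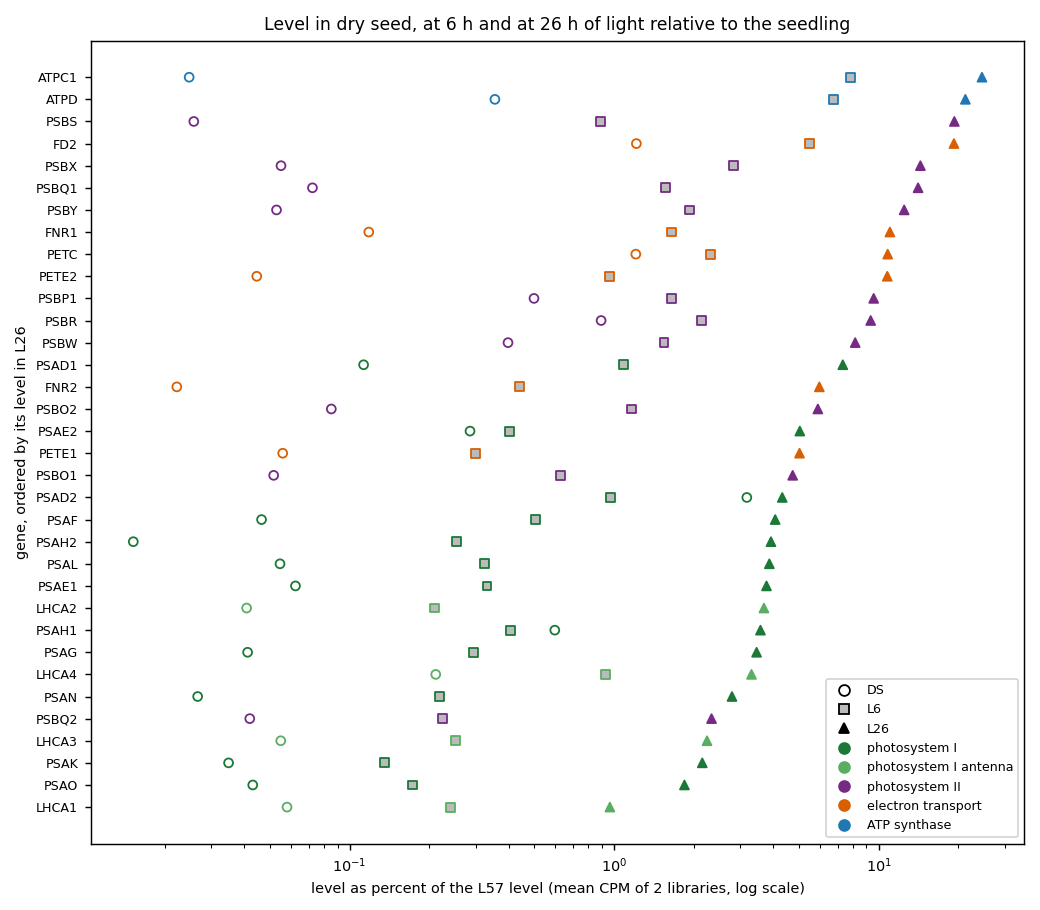
Mean CPM of each gene in DS (circles), L6 (squares) and L26 (triangles) as a percent of its mean CPM in L57 (log scale), with genes ordered by the L26 value and coloured by complex. In L26 ATPC1 and ATPD stand highest, at 24.6% and 21.3%, and LHCA1 lowest, at 0.964%; the DS circle of PSAD2 lies at 3.18%, and those of PSAD2 and PSAH1 stand to the right of their L6 squares.

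Within photosystem I the most abundant gene of the seedling per transcript length was PSAO, with a mean of 1194 TPM in L57 (a level scaled for transcript length and library total). Its CPM was 0.384 and 0.347 in DS, 0.299 and 0.424 in S24, 0.688 and 0.390 in S72, 1.15 and 1.78 in L6, 15.0 and 16.3 in L26 and 827 and 871 in L57. S24 overlapped with both of its neighbours, and each light stage lay above every earlier one. PSAO, PSAK, PSAL, PSAF, PSAN and PSAE1 followed one another between 957 and 1194 TPM in L57. PSAF, which docks plastocyanin, stood at 1031 TPM, and its libraries overlapped those of PSAL above it and PSAN, a luminal subunit, below it. PSAH1 was the lowest of the photosystem I genes at 284 TPM.

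The antenna genes held the highest level of all 34. LHCA4 (AT3G47470), which pairs with LHCA1 in the antenna belt, had a mean of 2413 TPM in L57. Its CPM was 5.22 and 6.26 in DS, 3.66 and 3.16 in S24, 6.61 and 6.01 in S72, 25.0 and 25.3 in L6, 85.7 and 93.8 in L26 and 2596 and 2830 in L57. LHCA4 dipped in S24 below both flanking stages and then rose at every step. LHCA1, LHCA3 and LHCA2 had 1807, 1630 and 1270 TPM in L57. LHCA1 and LHCA3 were close to PSBO1 in that order, and their neighbouring libraries overlapped.

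Of the photosystem II genes PSBR (AT1G79040), a small subunit linked to the oxygen-evolving complex, had the highest level in L57, 2086 TPM, and the second highest of all 34 genes, without overlap with LHCA4 above or LHCA1 below. Its CPM was 11.9 and 13.5 in DS, 13.9 and 14.9 in S24, 17.5 and 16.03 in S72, 29.0 and 31.6 in L6, 137 and 129 in L26 and 1360 and 1480 in L57. PSBR thus started far above most of the group, and its ratio of L57 to DS, 112, was the smallest of the photosystem II genes. In dry seed it was also first by TPM (20.4), ahead of FD2 (17.7) and PSAD2 (15.6). PSBS showed the other pattern. It gave 0.251 and 0.258 CPM in DS and stayed between 0.221 and 0.259 CPM in S24 and S72, then reached 183 and 200 CPM in L26 and 989 in each L57 library. The luminal proteins PSBO1 and PSBP1 ended at 1747 and 1523 TPM in L57, and the small membrane subunit PSBX at 1609.

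Among the electron carriers FD2 (AT1G60950), the main ferredoxin of leaves, had the highest level in L57 (1331 TPM) and held the largest part of the group's counts at every stage before it. Its CPM was 12.4 and 15.2 in DS, 18.9 and 20.1 in S24, 32.0 and 31.8 in S72, 62.4 and 62.1 in L6, 214 and 225 in L26 and 1144 and 1132 in L57. FD2 was higher at each stage than at the one before it in CPM, with no overlap between neighbours, although from DS to S24 its log2 fold change in the test, which uses TMM scaling, was -0.07 and did not pass. It took 25.4% and 26.14% of the counts of the 34 genes in S24 but was passed by LHCA4 in L57, which then held 8.46% and 8.70%. PETC, the Rieske iron-sulfur protein of cytochrome b6f, fell from 6.74 and 7.59 CPM in DS to 4.15 and 4.95 in S24, rose to 7.36 and 6.93 in S72, and reached 585 and 601 in L57. The plastocyanin gene PETE2 stood at 1251 TPM in L57 and its copy PETE1 at 132 TPM, the lowest of the 34.

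The ATP synthase gamma subunit gene ATPC1 had a mean of 549 TPM in L57. Its CPM was 0.225 and 0.133 in DS, 0.261 and 0.177 in S24, 1.75 and 1.60 in S72, 58.2 and 55.2 in L6, 168 and 189 in L26 and 711 and 738 in L57. ATPD began higher, at 1.28 and 1.51 CPM in DS, and reached 26.8 and 26.6 in L6 and 398 and 391 in L57. DS and S24 overlapped for ATPC1 and did not for ATPD.

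In this list 7 subunits are encoded by a pair of genes, and some pairs changed which copy predominated. For PSAD, the copy PSAD2 held most of the counts in seed: PSAD1 took 4.07% and 5.89% of the pair in DS. It took 12.6% and 16.6% in S24, 17.2% and 17.1% at S72, then 61.6% and 63.7% in L6, 70.6% and 72.8% in L26 and 60.7% and 59.4% in L57. In CPM PSAD2 gave 10.9 and 12.8 in DS, 10.5 and 10.8 in S24, 12.9 and 12.2 in S72, 3.44 and 3.81 in L6, 15.96 and 16.3 in L26 and 357 and 389 in L57. PSAD1 gave 0.463 and 0.7999 in DS, 1.52 and 2.16 in S24, 2.69 and 2.52 in S72, 5.52 and 6.67 in L6, 38.3 and 43.6 in L26 and 551 and 568 in L57. From S72 to L6 PSAD2 fell by 2.25 on the log2 scale (SE 0.12, adjusted p = 1.31e-09) and PSAD1 rose by 0.77 (SE 0.18, adjusted p = 0.00231), and L6 was the stage at which PSAD2 was lowest. The gene beside PSAD2, RAB28, 166 bases away, also went down over these stages, from 55.5 CPM in DS to 11.97 in S72 and 4.94 in L6, and AT1G03140, which overlaps PSAD2 by 2 bases, stood at 47.9, 112 and 47.4 CPM. Their part in the counts of PSAD2 was not tested.

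PSAH showed a second exchange. PSAH1 took 97.2% and 96.1% of the counts of the pair in DS, and PSAH2 the smaller part through S72, but in L26 PSAH1 took 41.1% and 39.1% and in L57 42.2% and 42.4%. PSAH1 gave 1.865 and 1.955 CPM in DS, 2.02 and 2.28 in S24, 1.91 and 1.81 in S72, 1.17 and 1.43 in L6, 10.8 and 12.1 in L26 and 310 and 330 in L57. PSAH2 gave 0.0529 and 0.08 CPM in DS, 0.0547 and 0.0463 in S24, 0.0659 and 0.170 in S72, 1.07 and 1.14 in L6, 15.4 and 18.9 in L26 and 425 and 450 in L57. In the first 3 stages PSAH1 was the higher of the pair, and in L26 and L57 the lower. At S72 to L6 PSAH1 fell by 0.97 (SE 0.16, adjusted p = 9.22e-05) and PSAH2 rose by 2.76 (SE 0.29, adjusted p = 1.58e-06). In DS the PSAH2 libraries rest on 4 and 9 counts, and the Wilson 95% intervals of the PSAH1 share were 93.1% to 98.9% and 92.7% to 97.9%; those of the PSAD1 share were 2.94% to 5.61% and 4.81% to 7.18%. These intervals cover counting error only.

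The other pairs moved less far. For PSBQ, PSBQ1 took 91.1% and 88.7% of the pair in L6 and 88.7% and 88.4% in L26, and 56.4% and 55.8% in L57, as PSBQ2 rose by 6.07 (SE 0.17, adjusted p = 1.26e-11) and PSBQ1 by 3.48 (SE 0.10, adjusted p = 1.20e-11) at the last step. For FNR, the reductase FNR1 took 96.1% and 89.5% of the pair in S72 and 53.7% and 53.9% in L57. FNR2 rose from S72 to L6 by 4.01 and FNR1 by 2.39 (SE 0.19, adjusted p = 7.11e-08). For PSAE, which with PSAD forms the stromal ridge of photosystem I, PSAE1 took 43.4% and 38.9% of the pair in DS and 76.1% and 76.3% in L57. PSBO1 kept the larger part of PSBO and PETE2 that of plastocyanin at every stage. From S24 to S72 PSAE1 rose by 1.202 (SE 0.22, adjusted p = 0.000452) while PSAE2 was at 0.01 (SE 0.13, adjusted p = 0.984). From S72 to L6 PSBO2 rose by 2.48 (SE 0.13, adjusted p = 9.14e-10) and PSBO1 by 1.39 (SE 0.13, adjusted p = 3.62e-07), and PETE2 rose by 2.98 (SE 0.13, adjusted p = 2.54e-10) and PETE1 by 1.16 (SE 0.26, adjusted p = 0.00155). Reads that match several places were put at 1 of them at random by the aligner, and how far this mixes the copies of a pair was not tested.

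**Figure D3:**
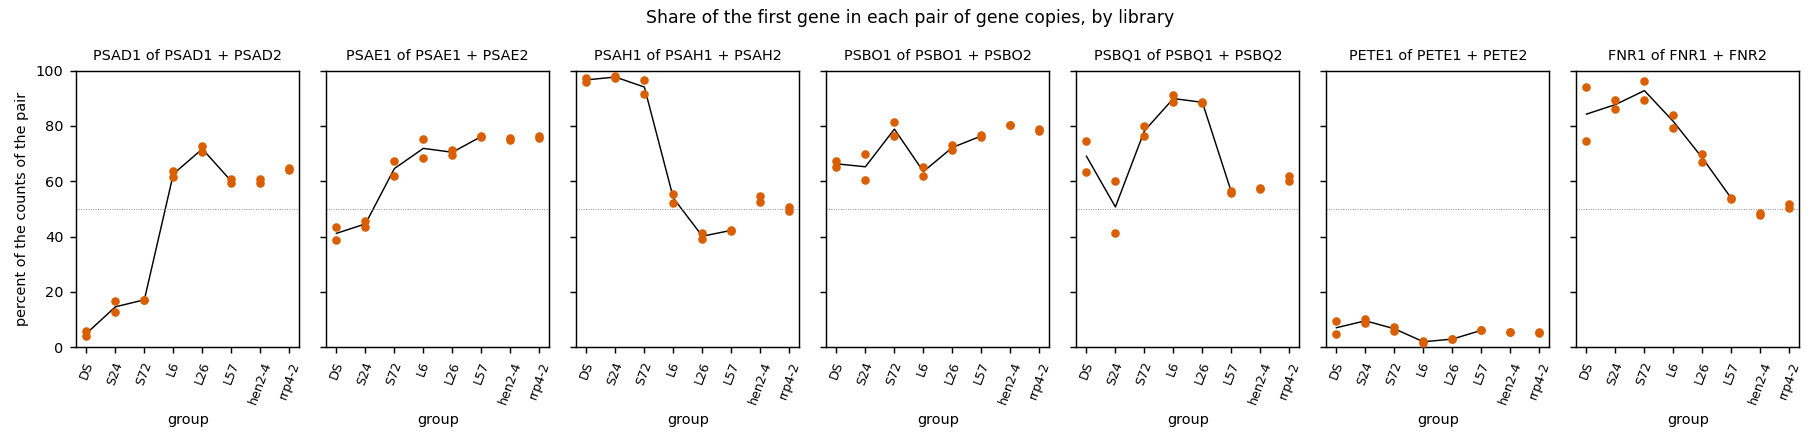
Percent of the counts of each gene pair that belong to the first gene, by library (points) and group, with a line through the means of the Col-0 stages. PSAD1 goes from 4.07% and 5.89% in DS to 61.6% and 63.7% in L6, and PSAH1 from 97.2% and 96.1% in DS to 41.1% and 39.1% in L26; PETE1 stays the minor copy throughout.

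The promoters of the exchanging pairs and of LHCA4, the most abundant gene, are shown because they let the copies be set side by side. Sequences are from RefSeq on TAIR10.1, 5′ to 3′ on the strand of the gene, from 250 bases before to 50 bases after the annotated gene start. Capitals mark the G-box CACGTG, the I-box GATAAG, the letters CCAATC and the TATA box letters TATAAA, on either strand.
PSAH1: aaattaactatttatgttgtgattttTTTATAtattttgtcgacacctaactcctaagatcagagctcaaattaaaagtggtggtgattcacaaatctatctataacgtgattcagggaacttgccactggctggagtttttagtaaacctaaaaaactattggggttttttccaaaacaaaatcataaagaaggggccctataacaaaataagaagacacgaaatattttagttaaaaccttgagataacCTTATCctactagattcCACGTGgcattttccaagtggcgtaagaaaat
PSAH2: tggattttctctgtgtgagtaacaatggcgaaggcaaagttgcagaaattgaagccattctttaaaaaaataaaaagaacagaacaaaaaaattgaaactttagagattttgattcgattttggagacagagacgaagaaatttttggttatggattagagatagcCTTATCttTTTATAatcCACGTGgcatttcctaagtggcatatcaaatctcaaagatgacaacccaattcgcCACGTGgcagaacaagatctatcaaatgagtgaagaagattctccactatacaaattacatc
PSAD1: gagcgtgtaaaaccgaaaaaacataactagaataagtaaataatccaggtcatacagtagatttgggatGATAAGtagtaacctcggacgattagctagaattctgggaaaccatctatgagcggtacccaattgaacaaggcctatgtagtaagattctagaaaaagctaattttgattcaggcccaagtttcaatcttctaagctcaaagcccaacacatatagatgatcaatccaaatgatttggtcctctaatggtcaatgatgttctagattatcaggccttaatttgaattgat
PSAD2: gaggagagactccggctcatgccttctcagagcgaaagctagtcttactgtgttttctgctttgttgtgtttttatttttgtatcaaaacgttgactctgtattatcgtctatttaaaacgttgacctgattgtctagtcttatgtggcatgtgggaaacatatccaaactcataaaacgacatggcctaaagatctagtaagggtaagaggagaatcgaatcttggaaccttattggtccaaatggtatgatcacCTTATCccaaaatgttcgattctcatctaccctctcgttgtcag
LHCA4: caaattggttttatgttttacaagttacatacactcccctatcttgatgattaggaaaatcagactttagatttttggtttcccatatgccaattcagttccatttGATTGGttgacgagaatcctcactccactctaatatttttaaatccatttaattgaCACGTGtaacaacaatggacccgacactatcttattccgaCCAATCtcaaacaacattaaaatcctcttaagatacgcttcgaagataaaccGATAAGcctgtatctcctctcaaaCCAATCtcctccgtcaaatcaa
These windows lie at chr3:5469545-5469844 (minus strand) for PSAH1, chr1:19454548-19454847 (plus strand) for PSAH2, chr4:1230115-1230414 (minus strand) for PSAD1, chr1:754213-754512 (minus strand) for PSAD2 and chr3:17494984-17495283 (minus strand) for LHCA4.

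PSAH1 and PSAH2 share a run of 14 bases, tcCACGTGgcattt, that holds a G-box, and PSAH2 carries a further G-box nearer its start. The G-box of this shared run begins 18 bases after the annotated gene start in PSAH1 and 67 bases before it in PSAH2. The longest run shared by the windows of PSAD1 and PSAD2 is 8 bases, neither holds a G-box, and each holds an I-box. Over all 34 genes the G-box was found in 12 windows (35.3%). It was found in 7.68% of the 27438 windows of the same length taken around annotated nuclear protein-coding genes. Its holders include both copies of PSAE, PSAH, PSBO and PSBQ, together with LHCA4, PSBR, PSBW and ATPD. The I-box GATAAG was in 18 windows (52.9%, against 14.7%) and CCAATC, letters recognised by the GLK factors and also part of a CCAAT box, in 10 (29.4%, against 12.4%). TATAAA was in 17 (50.0%, against 52.2%), the core ACGT, which every G-box contains, in 21 (61.8%, against 49.9%), the evening element AAAATATCT in 1 (2.94%, against 2.82%) and the telo box AAACCCTA in 0 (against 6.22%). All motifs were searched on both strands, a match describes letters only, and the shares were not tested.

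In the mutant seedlings HEN2 itself gave 68.7 and 66.3 CPM in the libraries labelled hen2-4, 21.2 and 16.3 in rrp4-2 and 17.2 and 15.3 in L57, so its counts were higher, not lower, in the libraries that carry its mutant label, and directions drawn from those libraries rest on the label. RRP4 gave 6.88 and 4.70 CPM in rrp4-2 and 6.07 and 4.81 in L57, which overlapped. Counts over a locus do not show whether a working product is made.

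In rrp4-2 seedlings most of the photosystem genes were lower than in Col-0. Against L57 the test called 22 of the 34 genes lower and 0 higher (8.54% and 18% of all genes), with a median log2 fold change of -0.50 beside 0.09 over all genes, and the 34 genes held 2.15% and 2.19% of all counts, against 3.07% and 3.25% in L57. None was higher at an unadjusted p under 0.05 in edgeR or by the DESeq2 Wald test. Lower were 8 of 12 photosystem I genes, 2 of 4 antenna genes, 9 of 10 photosystem II genes, 3 of 6 electron transport genes and 0 of 2 ATP synthase genes. PSBQ2 gave 256 and 268 CPM in rrp4-2 and 479 and 502 in L57 (-0.83, SE 0.14, adjusted p = 0.000886). PSBP1, which holds calcium and chloride at the oxygen-evolving complex, gave 1026 and 1065 against 1714 and 1857 (-0.70, SE 0.11, adjusted p = 0.000571), and PSAH2 gave 234 and 277 against 425 and 450 (-0.70, SE 0.15, adjusted p = 0.00512). The libraries did not overlap for these genes. LHCA4 gave 1933 and 1827 CPM in rrp4-2 and 2930 and 2801 in hen2-4, PSBR 1137 and 1121 and 1517 and 1499, and PSAD2 222 and 249 and 348 and 336. FD2 gave 799 and 847 CPM in rrp4-2 and 811 and 889 in hen2-4, and ATPC1 548 and 580 and 573 and 593. The mutants overlapped for FD2 and ATPC1 and did not for the other 3. By CPM every one of the 34 genes was lower in both rrp4-2 libraries than in both L57 libraries. But CPM divides by a total in which plastid RNA took 47.5% and 49.7% in rrp4-2. Without organellar and rRNA features 31 were lower without overlap, 1 higher, and 2 overlapped. How many of all genes separate in this way was not counted, so these counts have no background to be set against.

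In the libraries labelled hen2-4 fewer of the genes passed. Against L57 the test called 9 lower and 0 higher (10.6% and 19.7% of all genes), with a median log2 fold change of -0.10 beside 0.08, and 5 of the 9 were photosystem II genes. PSBS gave 653 and 671 CPM in hen2-4 and 989 in each L57 library (-0.48, SE 0.08, adjusted p = 0.000784). PSAH2 gave 294 and 299 CPM (-0.46, SE 0.15, adjusted p = 0.0366) and PSBQ2 341 and 337 CPM (-0.43, SE 0.14, adjusted p = 0.0305). None of the 4 antenna genes and neither ATP synthase gene passed. FNR2, with 601 and 595 CPM in hen2-4 against 457 and 462 in L57, had the largest positive value, 0.48 (SE 0.17, adjusted p = 0.0535), which did not pass; it was the 1 gene higher at an unadjusted p under 0.05, and the DESeq2 Wald test called 0. Both mutant comparisons use the same L57 libraries, so their calls are not independent of each other.

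The mutant counts leaned on single libraries and on the scaling. Without L57 replicate 2 the genes called lower were 13 in rrp4-2 and 1 in hen2-4, without rrp4-2 replicate 1 they were 15 in rrp4-2, and with hen2-4 replicate 1 or replicate 2 left out they were 3 in hen2-4. With DESeq2 size factors they were 31 in rrp4-2 and 15 in hen2-4, and all genes called in the main test kept their sign. Over all genes the split of calls turned with the scaling, from 5200 higher and 2461 lower in rrp4-2 to 3264 and 4973 with DESeq2 size factors, and from 5664 and 3048 in hen2-4 to 3861 and 5200. Single values moved with it, as for PSBQ2 in rrp4-2, at -0.98 in place of -0.83. Moving with the mutants were the root markers, whose summed CPM was 3754 to 4751 in L57, 2202 to 2525 in hen2-4 and 2021 to 2293 in rrp4-2, and the endosperm markers, at 502.5 to 618, 176 to 182 and 144 to 146; the green tissue markers stood at 21390 to 22730, 19560 to 21120 and 18010 to 18580, with none of the root, endosperm or green tissue markers at 0. Of the root markers 3 of 5 were called lower in each mutant and of the endosperm markers 2 of 5. The green tissue sum did not speak for each of its genes. RBCS2B stood at 2077 and 2128 CPM for rrp4-2, above its L57 values of 1790 and 1906. RBCS1A, RBCS3B, RCA and GAPB were lower in both rrp4-2 libraries than in both L57 libraries by CPM. These sums are levels and carry no test. The endosperm sum followed CP1, which L57 held at 574 and 454 CPM, the hen2-4 libraries at 152 and 145 and the rrp4-2 libraries at 98.4 and 87.9, whereas GASA6 was at 34.7 and 36.5, 20.9 and 22.5, and 36.0 and 46.1. The seed storage markers summed to 35.2 to 42.0 in L57, 20.5 to 22.5 in hen2-4, where 3 of 6 were called lower, and 38.6 to 54.5 in rrp4-2, where 1 of 6 was called higher. The part of these markers in the results was not tested.

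Compared with each other, the mutants differed at 12 of the 34 genes, all lower in rrp4-2 than in the libraries labelled hen2-4 (4.55% of all genes were called lower and 4.96% higher). The median log2 fold change was -0.38 beside 0. PSAO gave 892 and 872 CPM in hen2-4 and 582 and 562 in rrp4-2 (-0.65, SE 0.19, adjusted p = 0.0494), PSAL 871 and 957 against 545 and 641 (-0.64, SE 0.13, adjusted p = 0.00647), and LHCA1 2077 and 2016 against 1379 and 1298 (-0.64, SE 0.18, adjusted p = 0.0382). These groups did not overlap. Of the seed storage markers 4 of 6 were called higher in rrp4-2 than in hen2-4, with a median of 1.13, and their part was not tested. No electron transport or ATP synthase gene was among the 12, and only PSAE2 and LHCA4 passed in every alternative run; without rrp4-2 replicate 1 the count was 2, and without hen2-4 replicate 1 or 2 it was 4 or 3.

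**Figure D4:**
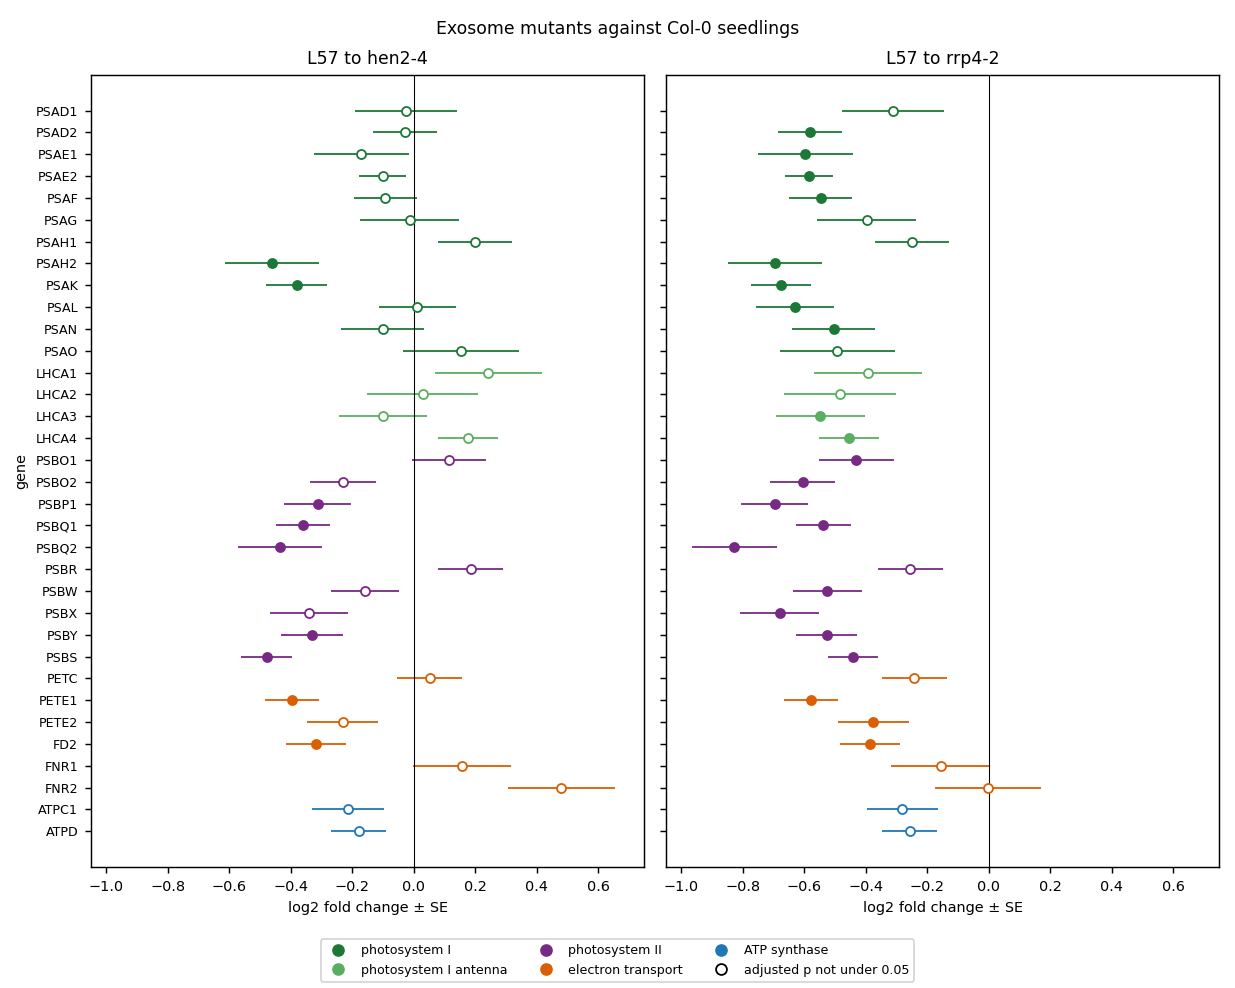
Log2 fold change (with SE bars) of each gene in hen2-4 (left) and rrp4-2 (right) against the same L57 libraries, coloured by complex; filled points passed an adjusted p of 0.05. In rrp4-2 all values lie below 0, from -0.83 (PSBQ2) to -0.003 (FNR2), and in hen2-4 they lie on both sides, from -0.48 (PSBS) to 0.48 (FNR2).

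The plastid-encoded partners of these subunits rose by less over germination, and in the mutants some were called higher and none lower. From DS to L57 all 5 plastid genes of photosystem I, all 15 of photosystem II, all 6 of cytochrome b6f and all 6 of the ATP synthase rose, with medians of 3.56, 3.95, 3.45 and 3.64 (log2), beside 10.58, 10.26, 9.86 and 9.72 for the nuclear photosystem I, photosystem II, electron transport and ATP synthase genes. In rrp4-2 3 of 5, 7 of 15, 5 of 6 and 5 of 6 of the plastid genes were called higher than in L57 and none lower, with medians of 0.42, 0.39, 0.49 and 0.51, while of all genes 18% were called higher and 8.54% lower. In hen2-4 3 of 5, 6 of 15, 4 of 6 and 3 of 6 were higher and none lower, with medians of 0.47, 0.36, 0.41 and 0.32, beside 19.7% and 10.6% of all genes. With DESeq2 size factors, tried after the data were seen, the counts were 2 of 5, 2 of 15, 3 of 6 and 4 of 6 in rrp4-2 and 3 of 5, 1 of 15, 1 of 6 and 2 of 6 in hen2-4, again with none lower; of all 28824 genes 3264 and 3861 were then called higher. The difference between nuclear and plastid genes was not tested, and plastid transcripts as a class were 41.2% and 43.4% of counts in L57 and 46.6% to 49.7% in the mutants.

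**Figure D5:**
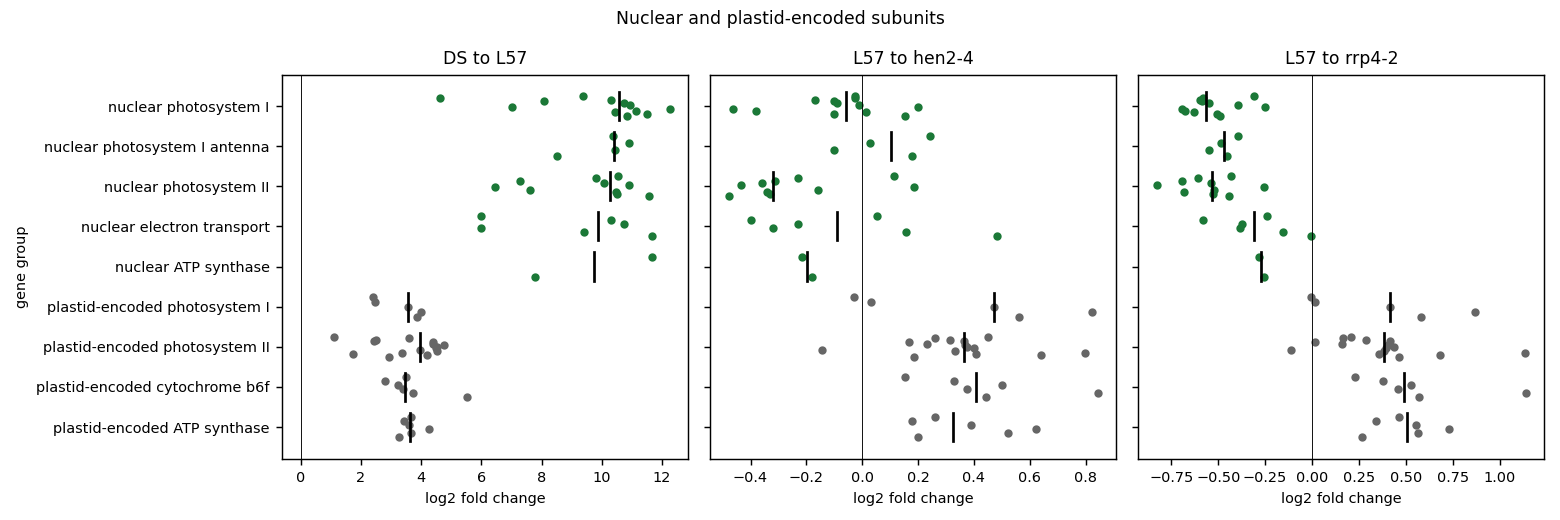
Log2 fold change of every nuclear gene (green) and of the plastid-encoded genes of the photosystems, cytochrome b6f and the ATP synthase (grey) from DS to L57 and from L57 to each mutant, with a black bar at each median; the vertical spread within a row has no meaning. From DS to L57 the nuclear medians lie between 9.72 and 10.58 and the plastid medians between 3.45 and 3.95.

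Most loci were read from a single annotated transcript. The 34 genes had 51 transcripts, and 22 genes had 1. For PSAL the transcript AT4G12800.2 held 29.6% and 33.9% of the counts of the gene in L57 but 2.69% and 0.474% in hen2-4 and 9.60% and 0.454% in rrp4-2, so both L57 libraries lay above all mutant libraries; before L57 its share went from 0% in both DS libraries to 46.7% and 46.5% in L6, and in S72 the libraries disagreed, with 0 and 63 counts. For PSAN the transcript AT5G64040.2 had 0 counts through L26 and held 6.83% and 6.78% of the gene in L57. Its share was 13.8% and 13.3% for hen2-4 and 8.59% and 16.5% for rrp4-2. How StringTie divided reads between overlapping transcripts was not tested. Antisense transcripts built de novo by the authors overlapped 5 of the genes, PSAD1, PSAN, PSBP1, PETE2 and ATPD. The strongest, over 479 bases of PSAD1, gave 0 to 15 counts per library up to L26 and 49 and 66 for L57. It gave 133 and 91 counts for hen2-4 and 110 and 84 for rrp4-2, far under the counts of PSAD1 itself in the seedlings. The mutant libraries are deeper than those of L57, so these raw counts cannot be compared directly. Scaled to library totals, L57 held this transcript at 0.51 and 0.59 CPM. The hen2-4 values, 0.52 and 0.35 CPM, overlapped these. The rrp4-2 values, 0.46 and 0.32 CPM, lay below them.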

How the data were processed

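Total RNA was depleted of rRNA, and stranded paired-end libraries were sequenced. Per the submitters' processing notes and the methods of the study, the authors trimmed reads with HOMER 4.11.1, aligned them with STAR 2.7.9a to TAIR10, placing reads with several hits at 1 random location, and deposited estimated counts per transcript from StringTie 2.1.4, over annotated and de novo transcripts. TPM values, also deposited by the authors, cover 46640 of 61786 transcripts and were used here for levels only. From the authors' GFF3 of de novo transcripts only coordinates were used.

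Estimated counts, already whole numbers as deposited, were summed per locus and divided by library totals to give CPM. All 16 libraries were fitted with edgeR 4.0.16 (R 4.3.3; glmQLFit and glmQLFTest, TMM factors, filterByExpr, 8 group coefficients, 8 residual degrees of freedom). Over the 28824 genes kept, which include all 34 genes described, p-values were adjusted by Benjamini-Hochberg within each of 9 comparisons; all are two-sided, and the threshold was 0.05. The SE is the log2 fold change over the square root of F. No exact test on single values was used, since 2 libraries against 2 allow no p under 0.33. The fit was tested on simulated counts with 100 genes changed 2-fold and 100 changed 4-fold, up or down. For L26 to L57 it recovered 100 and 100 of these and called 5 unchanged genes. For L57 to hen2-4 it recovered 98 and 100 but called 112 unchanged genes, among 28354 genes fitted. The unchanged genes there had a median log2 fold change of 0.13 in place of 0. Every simulated gene had the same dispersion, 0.01, so these numbers do not show how the fit does at the spread of the real libraries.

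Genes given fold changes with errors were the 3 largest rises and falls among calls, calls against the majority where 5 or fewer, and pairs whose log2 ratio moved by more than 1; levels in every library were given for the highest gene of each complex and the extremes of DS to L57. The genes and lists were chosen with earlier results of these data known. A count column whose name misspells rrp4 was read as rrp4-2 replicate 1. Promoters were read from RefSeq TAIR10.1, whose nuclear chromosome lengths hold all deposited coordinates. Alternatives were DESeq2 1.42.0 size factors, its Wald test, no filter, organellar and rRNA features removed, a fit of just the 4 libraries of a comparison, a replicate block, and each library left out in turn.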

Additional observations from a re-analysis of the deposited data

Results flagged for a closer look

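The 2 mutants responded differently at 12 genes by the test of the difference itself, the comparison of rrp4-2 with the libraries labelled hen2-4 in edgeR. The log2 fold changes were -0.65 for PSAO, -0.64 for PSAL, -0.56 for PSAD2, -0.48 for PSAE2, -0.46 for PSAF and -0.45 for PSAH1 among the photosystem I genes. They were -0.64 for LHCA1 and -0.63 for LHCA4 in the antenna, and -0.55 for PSBO1, -0.44 for PSBR, -0.38 for PSBP1 and -0.38 for PSBO2 in photosystem II. All 12 were lower in both rrp4-2 libraries by CPM, but the calls came from the same libraries, so this adds no separate support. Of all the photosystem and electron transport genes described, 30 were lower in this way, 0 were higher and 4 overlapped. The share of all genes that separate in this way was not counted. Only PSAE2 and LHCA4 passed in every alternative run.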

How the results depend on the processing

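With 2 libraries a group, the steps from L6 onward and DS to L57 gave 34 of 34 genes called under every alternative run. Of the genes called in the other comparisons, those called in every alternative and with each library left out were 15 of 21 for DS to S24, 18 of 27 for S24 to S72 (20 of 27 without organellar and rRNA features), 28 of 33 for S72 to L6, 1 of 9 for L57 to hen2-4, 13 of 22 for L57 to rrp4-2 and 2 of 12 for hen2-4 to rrp4-2. DS to S24 gave 1 gene higher when only the 4 libraries compared were fitted, against 2, and S24 to S72 gave 1 lower without organellar and rRNA features, against 0. L57 to hen2-4 gave 15 lower with DESeq2 size factors and 17 with the Wald test, against 9, and 1 higher with only the 4 libraries. hen2-4 to rrp4-2 gave 21 lower with only the 4 libraries and 20 with the Wald test, against 12. The cause was not tested. Over all genes, calls from L26 to L57 split into 8575 higher and 10242 lower, and into 10794 and 7573 with DESeq2 size factors; without organellar and rRNA features DS to S24 went from 8322 and 7137 to 10258 and 5123, and S24 to S72 from 7528 and 7983 to 5444 and 10459. The differences between replicates 1 and 2 correlated between groups with r of -0.37 to 0.23 over 28 pairs of groups. This cannot show whether the numbers pair samples, since the labels do not say what they stand for. The main fit used no pairing, and a replicate block gave 1 gene higher in L57 to hen2-4, against 0.

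Leaving out a library gave 0 to 2 higher and 17 to 19 lower for DS to S24, 22 to 28 higher for S24 to S72, 28 to 31 higher for S72 to L6, 0 to 1 higher and 1 to 10 lower for L57 to hen2-4, 13 to 23 lower for L57 to rrp4-2 and 2 to 10 lower for hen2-4 to rrp4-2. Single genes that changed sign had not passed the main test. PSAE2 from S24 to S72 (0.006) was at -0.068 with DESeq2 size factors and the Wald test, at -0.222 without organellar and rRNA features, and at -0.024 to 0.075 with a library left out. PSAH1 (-0.176) ran from -0.34 to 0.05 with a library left out. PSBQ2 from S72 to L6 (-0.055) was at 0.031 with DESeq2 size factors and the Wald test, at 0.03 without organellar and rRNA features, and at -0.233 to 0.104 with a library left out. Of the other values for single genes, 546 kept direction and call, 31 lost the call and 3 gained it.

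Without organellar and rRNA features the median level was 0.681 CPM in DS (0.597 with them), 0.415 in S24 (0.394), 47.4 in L26 (42.1), 1284 in L57 (731), 1112 in hen2-4 (591) and 1014 in rrp4-2 (520). The median percent of the L57 level was then 0.459% in L6 (0.757%) and 3.22% in L26 (5.03%).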

Other observations

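Genes around the photosystems moved with them to different extents. All 14 LHCB genes, the antenna of photosystem II, rose from DS to L57 (median log2 fold change 11.34). Of all genes tested, 40.5% were called higher from DS to L57 and 37.7% lower. LHCB1.4 gave 0.413 and 0.393 CPM in L26 and 1266 and 1345 in L57, LHCB1.1 rose by 8.54 (SE 0.48, edgeR adjusted p = 2.99e-09) and LHCB2.2 by 8.13 (SE 0.32, edgeR adjusted p = 1.33e-10) at that step, and near-identical copies in this family make single values uncertain. The 14 thylakoid assembly factors also all rose from DS to L57, by a smaller median of 2.92. They were led by HCF244, needed for translation of the photosystem II core protein psbA (9.45, SE 0.19, adjusted p = 5.43e-14), PPD1 (6.29, SE 0.14, adjusted p = 1.18e-13) and HCF136 (4.93, SE 0.09, adjusted p = 2.93e-14). Of 12 genes for cyclic electron flow and state transitions 10 rose and 1, PTOX, the plastid terminal oxidase, fell (-1.09, SE 0.08, adjusted p = 1.78e-08). NDHM and NDHN, of the plastid NDH complex, had 0 counts in both DS libraries and 49.2 and 50.3 and 33.1 and 30.8 CPM in L57.

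Of 14 other nuclear subunits 10 rose from DS to L57 and 3 fell (40.5% of all genes were called higher and 37.7% lower). LHCA6, a minor antenna protein, had 0 counts in both DS libraries and 67.2 and 67.5 CPM in L57, while PSBTN (10.65, SE 0.26, adjusted p = 2.92e-13) and PETM (10.01, SE 0.23, adjusted p = 1.73e-13) rose as far as the genes described in the report. FD3, a ferredoxin of non-green tissue, fell by 1.37 (SE 0.08, adjusted p = 1.03e-09) and ATPC2 by 1.70 (SE 0.10, adjusted p = 1.32e-09). Of 12 regulators of greening 10 rose and 2 fell; HYH (4.73, SE 0.14, adjusted p = 2.07e-12), PIF5 (3.74, SE 0.11, adjusted p = 1.77e-12) and GLK1 (3.55, SE 0.12, adjusted p = 5.96e-12) had the largest values. At the last step PIF5 rose by 3.95 (SE 0.11, adjusted p = 9.58e-12) and GLK1 by 1.07 (SE 0.10, adjusted p = 4.67e-07), while PIF1 fell by 1.29 (SE 0.10, adjusted p = 9.62e-08).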
